A study of Mus musculus with 9 samples.

Results

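The Serpina genes of the mouse liver form a cluster on chromosome 12, and 10 of them were followed in liver RNA from Apoe-/- and Mif-2-/- Apoe-/- mice. The members were taken by name from the 27179 genes counted. They were Serpina1a, Serpina1b, Serpina1c, Serpina1d, Serpina1e, Serpina3k, Serpina3m, Serpina3n, Serpina6 and Serpina12, and all 10 of 10 were found and passed the filter on low counts. The 5 Serpina1 genes and the 3 Serpina3 genes were also summed, because near-identical paralogs can share reads.

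Livers came from female mice placed on a high-fat diet at 8 weeks of age and kept on it for 12 weeks. There were 5 libraries of the genotype Apoe-/- and 4 of the genotype Mif-2-/- Apoe-/-, so every library lacked Apoe, and a mouse without that deletion or on a normal diet was not part of the comparison. The Mif-2 deletion was global, meaning that hepatocytes, blood cells and every other tissue carried it. RNA was taken from several pooled frozen sections per sample and made into low-input Smart-seq2 libraries, which do not keep the strand of a read. The labels number the libraries but do not state that each is a separate mouse, and the study's figures give 4 mice per group where 5 Apoe-/- libraries were counted. The p-values below therefore measure the spread between these libraries.

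Serpins are proteins that usually trap a protease by offering it a reactive loop as bait. The hepatocyte secretes many of those of clade A into plasma. Serpina1a to Serpina1e are the mouse copies of alpha-1-antitrypsin, the plasma inhibitor of neutrophil elastase. Serpina3k, Serpina3m and Serpina3n belong to an expanded mouse family related to human alpha-1-antichymotrypsin, and Serpina3k binds tissue kallikrein. Serpina6 is corticosteroid-binding globulin, a carrier that inhibits no protease, and Serpina12 is vaspin, an inhibitor of kallikrein 7 known from fat tissue.

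The cluster held 25 clade A genes of the count table over 799.5 kb of GRCm38 (GENCODE annotation), between chr12:103614786 and 104414329. Serpina6 (chr12:103646630-103657212, minus strand) lay near its left end. It was followed on the same strand by Serpina1b (chr12:103728156-103830373), Serpina1d (chr12:103763594-103773592), Serpina1a (chr12:103853589-103863562), Serpina1c (chr12:103894926-103904887), Serpina1e (chr12:103946931-103958975) and Serpina12 (chr12:104028769-104044443). The Serpina3 members lay on the plus strand at the right end, with Serpina3k at chr12:104338486-104346144, Serpina3m at chr12:104338486-104394257 and Serpina3n at chr12:104406729-104414329. The annotated span of Serpina1b contained Serpina1d, and the annotated Serpina3k and Serpina3m transcripts shared exon sequence. On the opposite strand B430119L08Rik overlapped exons of Serpina1c, so its reads and those of Serpina1c cannot be told apart.

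The Serpina1 promoters are shown because the 5 paralogs were nearly the same in sequence, while Serpina1e was far below the other 4 in level. The 80-base windows below come from RefSeq promoters of GRCm38.p6, all on the minus strand and all upstream of the RefSeq start site. That start can differ from the GENCODE one, and the windows of Serpina1b and Serpina1e lie inside the GENCODE spans given above. GTTAAT, the core of the element bound by the hepatocyte factor HNF1, is in capitals. It began at position -78 from the RefSeq start in Serpina1e and at -16 to -27 in the other 4.

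Serpina1a, chr12:103863626-103863705: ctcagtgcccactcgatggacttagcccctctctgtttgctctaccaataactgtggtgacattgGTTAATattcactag

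Serpina1b, chr12:103738201-103738280: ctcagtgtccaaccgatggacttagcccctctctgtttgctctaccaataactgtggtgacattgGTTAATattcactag

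Serpina1c, chr12:103904963-103905042: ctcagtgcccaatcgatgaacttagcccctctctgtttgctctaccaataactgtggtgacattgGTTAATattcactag

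Serpina1d, chr12:103773635-103773714: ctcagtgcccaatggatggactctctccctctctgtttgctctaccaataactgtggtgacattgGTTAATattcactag

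Serpina1e, chr12:103956961-103957040: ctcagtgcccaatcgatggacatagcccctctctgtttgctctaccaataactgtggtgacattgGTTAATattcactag

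Any pair of these windows differed at 2 to 7 bases. Over the whole promoters, from 250 bases before to 50 after the start site, the paralogs were 91.7 to 98.4% identical. RefSeq promoters were at hand for 7 of the 10 members. GTTAAT was found on either strand in the promoters of the 5 Serpina1 genes and not in those of Serpina3n and Serpina12, against 7.1% of 32851 mouse promoters. The C/EBP motif TTGCNNAA was found in 5 of the 7 (Serpina1a, Serpina1b, Serpina1d, Serpina1e and Serpina12), against 10.8% of all. The STAT motif TTCNNNGAA was in none of the 7, against 8.3% of all. These are matches of letters and not measured binding. The 5 Serpina1 promoters are near-identical copies, so their matches are not separate counts to set against the shares of all promoters.

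The transcripts were as alike as the promoters. Serpina1 mRNAs were 92.1 to 97.9% identical to each other and those of the 3 Serpina3 members 79.9 to 91.4%. The share of 50-base stretches that a gene had in common with a paralog of its group was highest for Serpina1c (73.3%), then Serpina1a (51.4%), Serpina1d (48.0%), Serpina1e (34.6%) and Serpina1b (28.2%). It was 17.1% for Serpina3m, 12.8% for Serpina3k and 0.893% for Serpina3n, and 0 for Serpina6 and Serpina12. How the counting treated reads that fit several genes is not given in the sources used here, so single Serpina1 genes are uncertain and their sum is the firmer value.

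Total counts ranged from 2318148 to 10764182 per library, and the 10 members took 0.619 to 1.73% of them. Ddt, the gene of MIF-2 on chr10:75771230-75773414, checked the labels. Its level was 499, 545, 691, 833 and 181 CPM (counts scaled to a common library size by the TMM method) in the Apoe-/- libraries and 4.20, 2.68, 4.18 and 1.97 CPM in those of Mif-2-/- Apoe-/- mice. Hepatocyte transcripts dominated every library, Alb being among the most abundant genes. A library in each group stood apart from its fellows. Counts of 18 other secreted hepatocyte products (Alb, Ttr, Apoa1, Trf, Hpx, fibrinogens and others) took 19.8 to 23.0% of Apoe-/- libraries 1 to 4 but 12.1% of library 5, and 10.05 to 13.2% of Mif-2-/- Apoe-/- libraries 1, 3 and 4 but 23.4% of library 2. In bulk tissue, fewer hepatocytes and less RNA per hepatocyte cannot be told apart.

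Levels per kilobase of transcript fell into tiers. In Apoe-/- livers Serpina1b was highest with 3964 ± 1393 CPM per kb (SD, n = 5), before Serpina1c (2508 ± 899.6), Serpina1d (1944 ± 726) and Serpina1a (1901 ± 632). Serpina1b exceeded Serpina1c in 9 of 9 libraries and Serpina1c exceeded Serpina1d in 9 of 9. Serpina1d exceeded Serpina1a in only 3 of 9, all of them Apoe-/-, so these last neighbours had no fixed order. Serpina6 followed with 309 ± 126 CPM per kb, below Serpina1a in 9 of 9 libraries. Serpina3k (144 ± 67.7), Serpina3m (89.3 ± 32.2) and Serpina3n (67.9 ± 26.5) came next, and their order was not fixed: Serpina3k exceeded Serpina3m in 4 of 9 libraries, all of them Apoe-/-. Lowest were Serpina1e (42.8 ± 17.6) and Serpina12 (33.1 ± 13.6). Serpina3n exceeded Serpina1e in 8 of 9 libraries and Serpina1e exceeded Serpina12 in 7 of 9. Mif-2-/- Apoe-/- livers had the same tiers apart from Serpina3k (35.2 ± 12.2 CPM per kb, SD, n = 4). There it was below Serpina3m (81.1 ± 31.2) and Serpina3n (67.8 ± 18.7) and near Serpina1e (32.6 ± 13.0). Serpina1b was 20.0 to 113 times as high per kilobase as Serpina1e, with a median of 74.8 over the 9 libraries. Their promoter windows were nearly the same in sequence but lay at different distances from the annotated RefSeq start. No start site was measured, and a link of that distance to the levels was not tested.

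The comparison asked how loss of Mif-2 in Apoe-/- mice on the diet bears on liver gene expression. Serpina1a to Serpina1d, Serpina3k and Serpina12 had mean levels 1.95 to 4.10 times as high in Apoe-/- livers as in Mif-2-/- Apoe-/- livers, while those of Serpina1e, Serpina3m, Serpina3n and Serpina6 were 0.922 to 1.31 times as high. With edgeR's quasi-likelihood test and Benjamini-Hochberg adjustment over 16870 genes, 0 of 10 members had an adjusted p under 0.05, where 0.148% of all genes did. At an unadjusted p under 0.05 there were 6 of 10, all higher in Apoe-/- livers, against 7.66% of all genes in that direction and 14.2% when only genes averaging 10 CPM or more are counted. DESeq2 called 3 of 10 (Serpina1b, Serpina1d and Serpina3k), all higher in Apoe-/- livers, against 2.35% of the genes for which it gave an adjusted p. It called neither the Serpina1 sum nor the Serpina3 sum. Over the whole table the log2 fold change, Apoe-/- over Mif-2-/- Apoe-/-, had a median of -0.10.

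**Figure D1:**
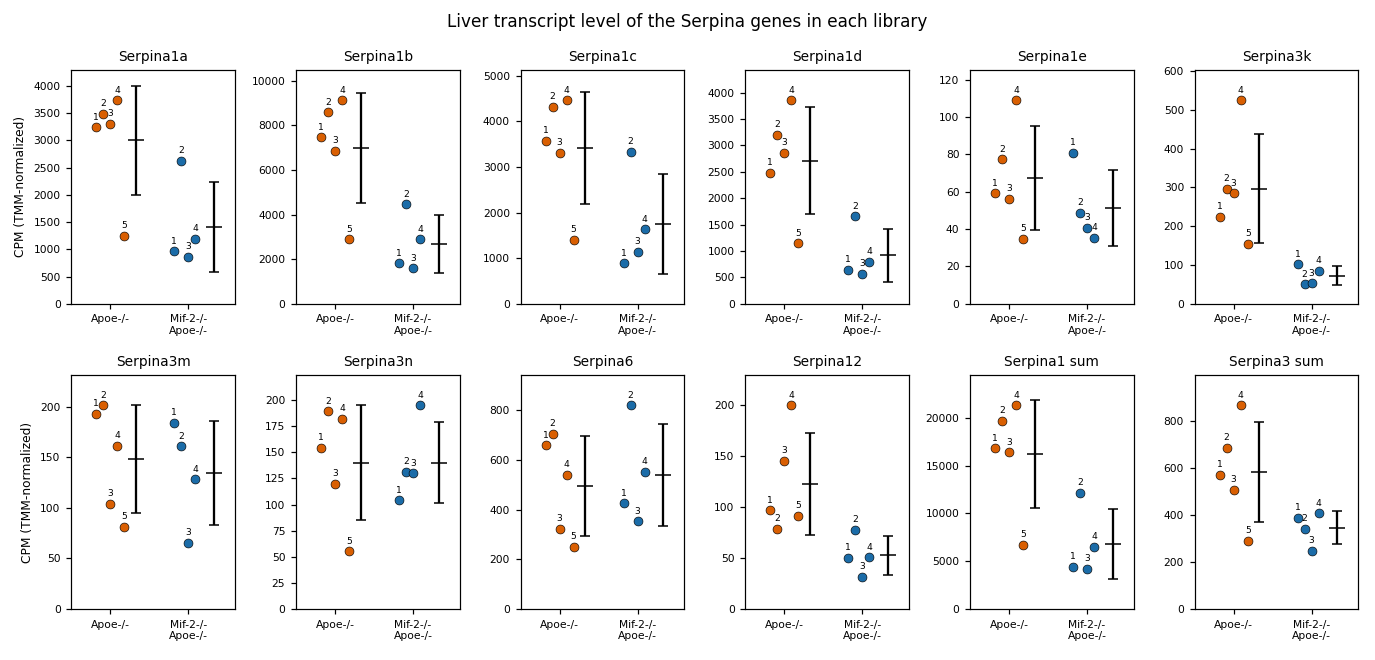
TMM-normalized CPM of the 10 Serpina genes and the 2 sums in each library (points, numbered by replicate), with the mean and SD of each genotype (bars); each vertical axis starts at 0. Serpina3k and Serpina12 do not overlap between the genotypes, and in Serpina1a to Serpina1d the Apoe-/- library 5 and the Mif-2-/- Apoe-/- library 2 lie apart from their groups.

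Among the alpha-1-antitrypsin genes the summed level was 16809.6, 19669.9, 16402, 21293 and 6724 CPM in Apoe-/- livers and 4400.3, 12128, 4206 and 6536 CPM in Mif-2-/- Apoe-/- livers. Apoe-/- libraries 1 to 4 lay above every Mif-2-/- Apoe-/- library, and library 5 lay below Mif-2-/- Apoe-/- library 2, so the groups overlapped. The mean was 16179.9 ± 5661 CPM (SD, n = 5) against 6818 ± 3694 (SD, n = 4). The log2 fold change was 1.25 (SE 0.45, edgeR adjusted p = 0.205, DESeq2 adjusted p = 0.0812), with p = 0.0397 by exact permutation (two-sided, as are all such tests here).

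Serpina1b, the most abundant copy, had 7466, 8580.5, 6859, 9124 and 2893 CPM in Apoe-/- livers and 1817, 4465, 1591 and 2882 CPM in Mif-2-/- Apoe-/- livers. The log2 fold change was 1.38 (SE 0.43, edgeR adjusted p = 0.161, DESeq2 adjusted p = 0.0365). Serpina1d had 2478, 3205, 2865, 3858 and 1143 CPM against 646, 1659.9, 569 and 795 CPM. Its log2 fold change of 1.56 (SE 0.43, edgeR adjusted p = 0.137, DESeq2 adjusted p = 0.0189) was the highest of the Serpina1 genes. For both genes 4 of 5 Apoe-/- libraries lay above the highest Mif-2-/- Apoe-/- library.

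Serpina1a was counted at 3239, 3488, 3309, 3739 and 1250.4 CPM in Apoe-/- livers and at 966, 2627, 863 and 1189.6 CPM in the others, with a log2 fold change of 1.09 (SE 0.42, edgeR adjusted p = 0.237). Serpina1c, the copy with the most shared sequence, had 3567, 4319, 3313, 4463 and 1403 CPM against 890.3, 3327, 1142 and 1634 CPM, with a log2 fold change of 0.97 (SE 0.44, edgeR adjusted p = 0.310). Here only 3 of 5 Apoe-/- libraries exceeded the highest of the other genotype. Serpina1e, with 109 to 681 counts per library, was at 34.9 to 109 CPM in Apoe-/- livers and 35.2 to 81.0 CPM in Mif-2-/- Apoe-/- livers, a near complete overlap (log2 fold change 0.39, SE 0.39, edgeR adjusted p = 0.685, and of the opposite sign when scaled to the secreted products).

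Serpina1b and Serpina1d were also fitted without the libraries that stood apart. For both genes Apoe-/- library 5 was the lowest and Mif-2-/- Apoe-/- library 2 the highest of its genotype. Leaving either out therefore had to widen the difference. Without Apoe-/- library 5, edgeR gave an adjusted p of 0.0470 for Serpina1b and 0.0360 for Serpina1d. Leaving out Mif-2-/- Apoe-/- library 2 gave 0.0604 for Serpina1b and 0.0365 for Serpina1d. Genes called over the whole table then numbered 254 and 271, against 25 in the main fit of all libraries. An edgeR fit of all libraries with the replicate number as a block, described below, called both genes.

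**Figure D2:**
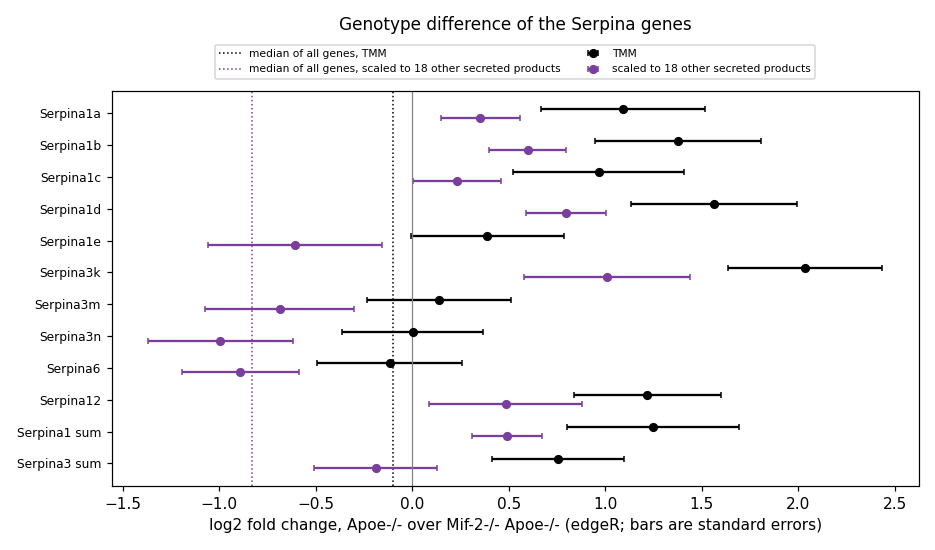
Log2 fold change of each Serpina gene and sum, Apoe-/- over Mif-2-/- Apoe-/- (points, with standard errors), under TMM scaling (black) and with libraries scaled to 18 other secreted hepatocyte products (purple), beside the median of all genes under each (dotted). Serpina3k is farthest to the right under both, and Serpina1e, Serpina3m, Serpina3n and the Serpina3 sum change sign between the scalings.

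The Serpina1 genes were therefore also set against the other secreted hepatocyte products of the same library, a choice made after the data had been seen. Scaling to that list moved the median of all genes to -0.83. The Serpina1 sum came to 7.32, 8.08, 6.71, 6.59 and 7.11% of the summed counts of that list in Apoe-/- livers and to 4.42, 5.01, 5.47 and 5.51% in Mif-2-/- Apoe-/- livers. On this scale the groups no longer overlapped, and Apoe-/- library 5 and Mif-2-/- Apoe-/- library 2 lay within the range of their own genotype. The means were 7.16 ± 0.592% (SD, n = 5) and 5.10 ± 0.510% (SD, n = 4), with an exact permutation p of 0.00794, which is the smallest that 126 arrangements of the libraries can give.

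Serpina1d was the clearest of the paralogs on this scale. It stood at 1.08, 1.32, 1.17, 1.19 and 1.21% of the list in Apoe-/- livers and 0.649, 0.686, 0.739 and 0.671% in the others. The ranges were far apart (exact permutation p = 0.00794). Serpina1b (2.81 to 3.52% against 1.82 to 2.43%) and Serpina1a (1.16 to 1.43% against 0.969 to 1.12%) did not overlap either, whereas Serpina1c (1.36 to 1.77% against 0.893 to 1.48%) did. In all, 3 of 10 members did not overlap and were higher in Apoe-/- livers, against 1.17% of all genes by the same measure. The list is itself uneven, since under TMM scaling its genes had log2 fold changes of 0.19 to 1.54. Alb and Apoa1, its most abundant genes, had 0.61 and 0.19. The 1.25 of the Serpina1 sum lay within the range of the list, and the 1.56 of Serpina1d just above it. Adjusted over all 16870 genes, the permutation p was 0.264 for Serpina1b and Serpina1d, the lowest adjusted value that any gene reached. In edgeR fits scaled to the list, the Serpina1 sum had a log2 fold change of 0.49 (SE 0.18, adjusted p = 0.228) and Serpina1d one of 0.80 (SE 0.21, adjusted p = 0.194).

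The make-up of the alpha-1-antitrypsin pool does not depend on how libraries are scaled. Serpina1b supplied 43.1 ± 0.963% of Serpina1 counts in Apoe-/- livers and 40.01 ± 3.32% in Mif-2-/- Apoe-/- livers (SD, n = 5 and 4). The share of Serpina1d was 14.7, 16.3, 17.5, 18.1 and 17.0% against 14.7, 13.7, 13.5 and 12.2%. These shares met at their edges without overlapping (means 16.7 ± 1.29% and 13.5 ± 1.04%, exact permutation p = 0.0159, 8 shares compared). The Serpina1c share was lower in Apoe-/- livers, with 21.0 ± 0.637% against 25.0 ± 3.33% (exact permutation p = 0.0476), and its groups overlapped. Serpina1a held 18.7 ± 1.09% and 20.6 ± 1.70% (exact permutation p = 0.0952), and Serpina1e 0.344 to 0.519% and 0.401 to 1.84% (exact permutation p = 0.0317). Since long stretches of these mRNAs are identical, the shares also carry the way shared reads were assigned, whose part was not tested.

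**Figure D3:**
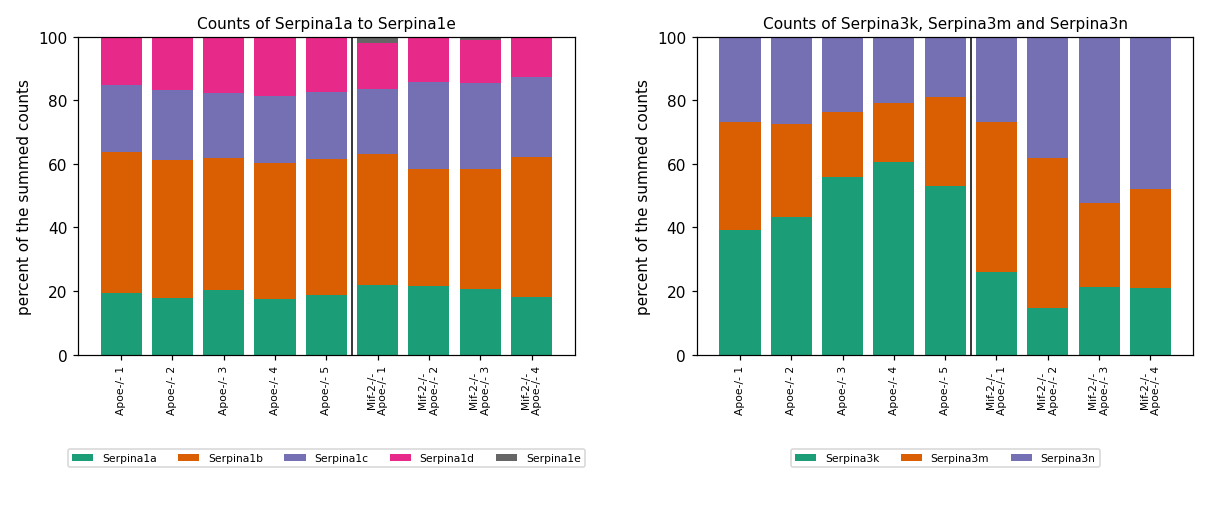
Percent of the summed counts held by each paralog in each library, for Serpina1a to Serpina1e (left) and for Serpina3k, Serpina3m and Serpina3n (right), with a line between the genotypes. The Serpina1d share is 14.7 to 18.1% left of the line and 12.2 to 14.7% right of it, and the Serpina3k share 39.3 to 60.4% and 14.7 to 26.1%.

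Serpina3k, the kallikrein-binding member of the antichymotrypsin-like group, showed the largest difference of the 10. Its level was 224, 297, 285, 525 and 155 CPM in Apoe-/- livers and 102, 50.4, 52.8 and 84.7 CPM in Mif-2-/- Apoe-/- livers. Every Apoe-/- library, including library 5, was above every Mif-2-/- Apoe-/- library. The means were 297 ± 139 and 72.4 ± 25.0 CPM, a log2 fold change of 2.03 (SE 0.40). edgeR gave an unadjusted p of 0.000135, rank 32 of 16870 genes, and an adjusted p of 0.0682, and the exact permutation p was 0.00794. DESeq2 called it with an adjusted p of 9.37e-05. With 1 library left out, edgeR's adjusted p passed the threshold in 2 of 9 fits and reached 0.194 at most. These were the fits without Apoe-/- library 5 (0.0169) and without Mif-2-/- Apoe-/- library 2 (0.0454). Without the latter the log2 fold change was 1.90 and the unadjusted edgeR p 0.000586, both weaker than with all libraries. That fit called 271 genes over the whole table, against 25 in the main fit. As percent of the secreted products it was 0.0977 to 0.163% against 0.0208 to 0.102%, so the groups overlapped by a narrow margin on that scale (exact permutation p = 0.0238). With edgeR scaled to those products the log2 fold change was 1.01 (SE 0.43, edgeR adjusted p = 0.265). The study names Serpina3k and Serpina12 among its liver results, so their direction here is not independent evidence.

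Its 2 relatives had levels that overlapped between the genotypes. Serpina3m was at 193, 201, 104, 161 and 81.2 CPM in Apoe-/- livers and 184, 161, 65.2 and 128 CPM in Mif-2-/- Apoe-/- livers (log2 fold change 0.14, SE 0.38, edgeR adjusted p = 0.900). Serpina3n, an acute-phase inhibitor, was at 154, 189, 119.9, 182 and 55.3 CPM against 104, 131, 129.7 and 195 CPM (log2 fold change 0.00, SE 0.37, edgeR adjusted p = 0.998). Both ranges overlapped almost fully, and the sign turned under scaling to the secreted products, for Serpina3n also under RLE size factors. Summed, the 3 genes had 585 ± 214 CPM (n = 5) and 347 ± 71.7 CPM (n = 4). Their log2 fold change of 0.75 (SE 0.34, edgeR adjusted p = 0.303, DESeq2 adjusted p = 0.208) turned to -0.19 under the secreted-product scaling.

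That Serpina3k differed from its relatives was tested through its share of their summed counts. The share was 39.3, 43.2, 56.0, 60.4 and 53.1% in Apoe-/- livers and 26.1, 14.7, 21.3 and 20.8% in Mif-2-/- Apoe-/- livers. No library came near the other genotype. The means were 50.4 ± 8.89% and 20.7 ± 4.66%, with an exact permutation p of 0.00794 among the 8 shares compared. Since the shares make up the whole, those of the other 2 genes together had to be higher in Mif-2-/- Apoe-/- livers. Serpina3n had 23.6 ± 3.70% against 41.3 ± 11.4% (exact permutation p = 0.0238), and Serpina3m 26.0 ± 6.35% against 38.0 ± 10.7% (exact permutation p = 0.0952). Only 12.8% of Serpina3k 50-base stretches occurred in the other 2 genes.

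Serpina6, the glucocorticoid carrier, had 659, 706, 322, 541 and 251 CPM in Apoe-/- livers and 426, 819.7, 353 and 554 CPM in Mif-2-/- Apoe-/- livers. The groups covered the same range (log2 fold change -0.12, SE 0.37, edgeR adjusted p = 0.919). Its mean was not higher in Apoe-/- livers, unlike the means of the other secreted hepatocyte products. Among Mif-2-/- Apoe-/- libraries, however, Serpina6 ranked in the same order as the percent of counts those products took. The Apoe-/- library lowest for those products was also lowest for Serpina6, but the remaining Apoe-/- libraries ranked differently. Relative to the other secreted products Serpina6 was 0.287, 0.290, 0.132, 0.167 and 0.266% in Apoe-/- livers and 0.428, 0.339, 0.458 and 0.467% in Mif-2-/- Apoe-/- livers. On that scale every Mif-2-/- Apoe-/- library was above every Apoe-/- library (means 0.228 ± 0.0736% and 0.423 ± 0.0586%, exact permutation p = 0.00794, 0.264 adjusted over all genes). Of the 10 members it was the only one without overlap in this direction, where 2.47% of all genes were. The edgeR fit scaled to the list gave -0.89 (SE 0.30, adjusted p = 0.212), next to a median of -0.83 over all genes.

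Serpina12 had 96.9, 78.5, 145, 199.6 and 91.1 CPM in Apoe-/- livers and 50.4, 77.6, 31.9 and 50.8 CPM in Mif-2-/- Apoe-/- livers. The groups did not overlap, but Apoe-/- library 2 and Mif-2-/- Apoe-/- library 2 almost touched. The means were 122 ± 50.1 and 52.7 ± 18.8 CPM, with a log2 fold change of 1.22 (SE 0.38, edgeR adjusted p = 0.161, DESeq2 adjusted p = 0.0621, exact permutation p = 0.0159). By CPM, Serpina3k and Serpina12 were thus 2 of 10 members without overlap and higher in Apoe-/- livers, where 2.59% of all genes and 4.71% of those averaging 10 CPM or more were. As percent of the secreted products Serpina12 overlapped, with 0.0322 to 0.0963% against 0.0321 to 0.0506% (exact permutation p = 0.230), and with edgeR scaled to those products its log2 fold change was 0.48 (SE 0.40, edgeR adjusted p = 0.527).

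**Figure D4:**
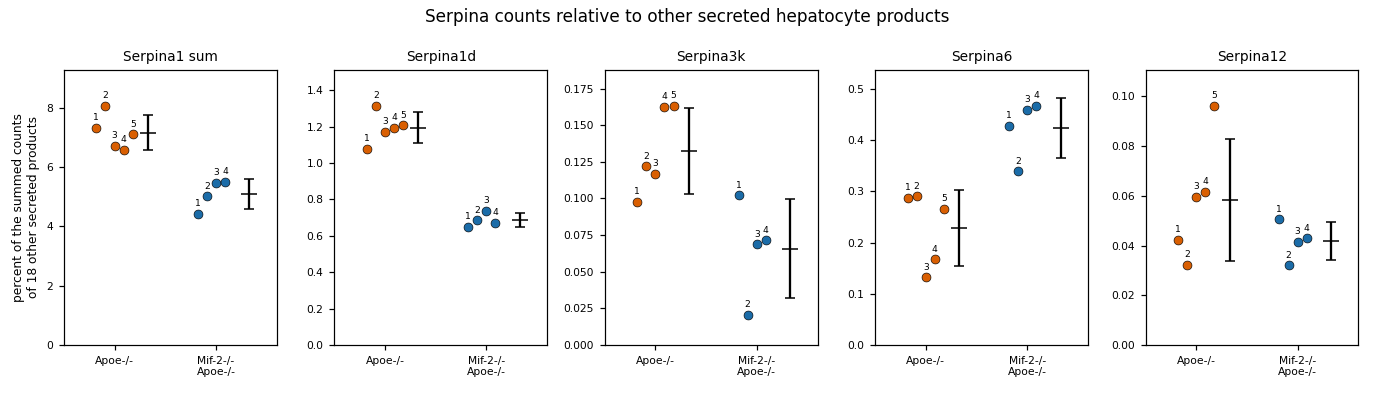
Counts of the Serpina1 sum, Serpina1d, Serpina3k, Serpina6 and Serpina12 as percent of the summed counts of 18 other secreted hepatocyte products in the same library (points, numbered by replicate), with the mean and SD of each genotype; each vertical axis starts at 0. The Serpina1 sum and Serpina1d are higher and Serpina6 is lower in every Apoe-/- library than in any Mif-2-/- Apoe-/- library, whereas Serpina3k and Serpina12 overlap on this scale.

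Fold changes were also read along the cluster. Of the 25 clade A genes, 14 had a mean of at least 10 CPM, and 11 of these had a log2 fold change above 0 under TMM scaling. The median of all genes under that scaling was -0.10. Serpina10, the inhibitor of coagulation factor X that depends on protein Z, and Serpina11 flank the Serpina1 block. They had 269.7 ± 75.1 against 152 ± 40.6 CPM (log2 fold change 0.83, SE 0.33, edgeR adjusted p = 0.243) and 312 ± 107 against 174 ± 74.7 CPM (0.84, SE 0.37, edgeR adjusted p = 0.291). Serpina6 lies between Serpina10 and the Serpina1 block, with its -0.12. Of the 16 further clade A genes counted, which include Serpina7 on chromosome X, 11 were tested. Of these, edgeR called 0 and DESeq2 called Serpina3j alone. At an unadjusted p under 0.05, 3 were higher and 2 lower in Apoe-/- livers. Over all 16870 genes 2656 had such a p, 1293 of them (7.66% of all) higher in Apoe-/- livers. The median log2 fold change of the 11 was -0.10.

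**Figure D5:**
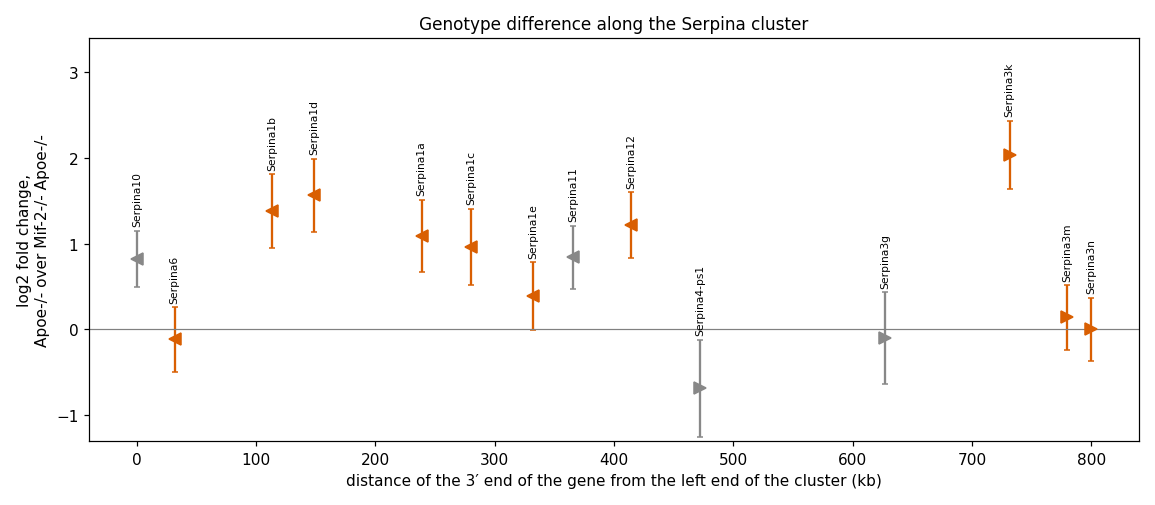
Log2 fold change, Apoe-/- over Mif-2-/- Apoe-/- under TMM scaling (with standard errors), of the 14 clade A genes averaging 10 CPM or more, against the distance of their 3′ end from the left end of the cluster; arrowheads show the strand, and the 10 members are orange. Serpina6 near the left end and Serpina3m and Serpina3n at the right end lie near 0, while Serpina3k, next to them, has 2.03.

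Serpins of other clades included further plasma inhibitors made by hepatocytes. Of 14 tested, 0 were called by edgeR or DESeq2, and 4 were higher and 1 lower in Apoe-/- livers at an unadjusted p under 0.05. Over all genes 7.66% were higher in Apoe-/- livers at that p, and 14.2% of those averaging 10 CPM or more. Serpinc1 (antithrombin) had 4052 ± 1504 against 1818 ± 1230 CPM (log2 fold change 1.16, edgeR adjusted p = 0.242), and Serpinf1 (pigment epithelium-derived factor) 838 ± 275 against 359 ± 227 CPM (1.22, edgeR adjusted p = 0.198). Serping1, the C1 inhibitor, had 963 ± 369 against 702 ± 336 CPM (0.46, edgeR adjusted p = 0.619). The median log2 fold change of the 14 was 0.45.

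Proteases listed beside these serpins were mostly scarce or level, and tissue kallikrein, which Serpina3k binds, was not on the list. Of 10 listed, 8 were tested and 0 were called by edgeR or DESeq2. Cela1, an elastase, alone was at an unadjusted p under 0.05 (15.9 ± 7.91 against 5.56 ± 2.56 CPM, edgeR adjusted p = 0.287). Over all genes 7.66% were higher in Apoe-/- livers at that unadjusted p. Klkb1, plasma kallikrein, had 168 ± 30.5 against 112 ± 42.6 CPM (log2 fold change 0.59, edgeR adjusted p = 0.396). Proc (protein C) and Hpn (hepsin), both of which hepatocytes make, had log2 fold changes of -0.09 and -0.07. The median of the 8 was -0.32.

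Known regulators of Serpina transcription showed no called difference. Of 19 transcription factors, cytokine receptors and their signalling genes, 0 were called by edgeR or DESeq2. None had an unadjusted p under 0.05, where 2656 of all 16870 genes did. Their log2 fold changes lay between -0.83 and 0.68 with a median of -0.29. Hnf4a (365 ± 143 against 326 ± 75.8 CPM, edgeR adjusted p = 0.871) and Cebpa (339 ± 83.9 against 278 ± 87.0 CPM, edgeR adjusted p = 0.727) were the most abundant. Cebpb, which drives acute-phase transcription, had 238 ± 66.8 against 362 ± 111 CPM (log2 fold change -0.61, edgeR adjusted p = 0.386), and Stat5a 64.6 ± 15.3 against 40.2 ± 17.6 CPM (0.68, edgeR adjusted p = 0.408).

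Genes for folding, export and disposal of secreted glycoproteins leaned the same way as the Serpina1 genes. Of 17 tested, 15 had a log2 fold change above 0, 8 were higher in Apoe-/- livers at an unadjusted p under 0.05, 0 were called by edgeR and DESeq2 called 3. Of all genes, 7.66% were higher in Apoe-/- livers at that unadjusted p (14.2% of those averaging 10 CPM or more) and 2.35% were called higher by DESeq2. Surf4, a cargo receptor that carries secreted proteins out of the endoplasmic reticulum, had 370.2 ± 147 against 117 ± 58.8 CPM (log2 fold change 1.66, edgeR adjusted p = 0.133, DESeq2 adjusted p = 0.0122). Hsp90b1, a chaperone of that compartment, had 265 ± 91.9 against 108 ± 43.0 CPM (1.30, edgeR adjusted p = 0.142, DESeq2 adjusted p = 0.0266). Os9, which marks misfolded glycoproteins for removal, had 301 ± 73.4 against 240.0 ± 42.2 CPM (0.33, edgeR adjusted p = 0.646). The median of the list was 0.72, against -0.10 for all genes.

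Glucocorticoid genes, set beside the carrier Serpina6, went both ways. Of 12 tested, edgeR called 0, DESeq2 called 2 as lower in Apoe-/- livers, and the median was -0.03. At an unadjusted p under 0.05, 1 was higher and 3 were lower. Over all 16870 genes 2656 had such a p, 1293 of them higher in Apoe-/- livers. DESeq2 called 379 of 14686 genes as lower. Per1, a clock gene that glucocorticoids induce, had 15.5 ± 7.67 against 73.6 ± 15.9 CPM without overlap (log2 fold change -2.24, edgeR adjusted p = 0.0682, DESeq2 adjusted p = 0.000216). Pck1, the rate-limiting enzyme of gluconeogenesis, had 697 ± 255 against 1467 ± 588 CPM, also without overlap (-1.07, edgeR adjusted p = 0.194, DESeq2 adjusted p = 0.0221).

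Acute-phase genes lay on the same side as the alpha-1-antitrypsin genes. All 14 of 14 had a log2 fold change above 0, with a median of 1.25. At an unadjusted p under 0.05 there were 9, edgeR called 0 and DESeq2 called 6, beside the same shares of all genes (7.66%, 14.2% and 2.35%). Saa2, a serum amyloid A gene, had 429 ± 192 against 81.1 ± 65.6 CPM without overlap (log2 fold change 2.41, edgeR adjusted p = 0.0982, DESeq2 adjusted p = 0.00188). Hp (haptoglobin) was far more abundant, with 22359 ± 6694 against 11061 ± 4448 CPM (1.02, edgeR adjusted p = 0.253). Itih3, of the inter-alpha-trypsin inhibitor family, had 1962 ± 489 against 1625 ± 410 CPM (0.27, edgeR adjusted p = 0.745), and Hamp (hepcidin) 1018 ± 331 against 1005 ± 518 CPM (0.02, edgeR adjusted p = 0.992). The 18 other secreted products had 18 of 18 log2 fold changes above 0 and a median of 0.96, with 12 at an unadjusted p under 0.05, 0 called by edgeR and 2 by DESeq2. The shares of all genes above apply here too. Apoa1 (apolipoprotein A-I) had a log2 fold change of 0.19 (edgeR adjusted p = 0.875), Alb (albumin) 0.61 (edgeR adjusted p = 0.593) and Trf (transferrin) 1.46 (edgeR adjusted p = 0.153, DESeq2 adjusted p = 0.0102).

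Markers of cell types were read beside these values, and edgeR called 0 of them. At an unadjusted p under 0.05, 3 were higher and 3 lower in Apoe-/- livers, and DESeq2 called Cd5l (Kupffer cells, higher) and Adrb3 (adipocytes, lower). Over all 16870 genes 2656 had such a p, 1293 of them higher in Apoe-/- livers. DESeq2 called 345 of 14686 genes as higher and 379 as lower. The 7 hepatocyte markers had a median log2 fold change of 0.61, with 6 of 7 above 0 and summed levels of 48598 to 167250.0 CPM in Apoe-/- livers and 49581 to 151574 CPM in Mif-2-/- Apoe-/- livers. Kupffer cell markers summed to 742 to 1640 CPM and 828.9 to 1155 CPM (5 of 7 above 0, median 0.23), endothelial markers to 201 to 325 CPM and 119 to 336 CPM (5 of 7, 0.68), stellate cell markers to 211 to 427 CPM and 198 to 447 CPM (2 of 7, -0.05) and bile duct markers to 70.5 to 262 CPM and 52.2 to 239 CPM (3 of 5, 0.20). Neutrophil markers, of which Ly6g was at 0 in every library, summed to 18.8 to 55.1 CPM and 23.6 to 80.9 CPM (3 of 6, -0.15). Adipocyte markers, relevant to vaspin, summed to 14.4 to 33.0 CPM in Apoe-/- livers and 51.3 to 88.7 CPM in Mif-2-/- Apoe-/- livers (2 of 5 above 0, median -1.29). Among them Adrb3 was at 5.15 ± 3.82 against 44.5 ± 8.63 CPM (edgeR adjusted p = 0.107). Adipoq, which defines the adipocyte, had 0 to 8 counts in any library. The part that cell composition took in the Serpina values was not tested.

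The genes whose levels ran most closely with the members over the 9 libraries are given as a description, since all points share genotype, depth and scaling. Among 7395 other genes averaging 10 CPM or more, the Serpina1 sum ran closest with Orm1 (an acute-phase orosomucoid, Pearson r = 0.996) and Amy1 (0.994). For the Serpina3 sum these were Glul (0.989), Arpc4 (0.981) and Dhrs7b (0.971). Serpina6 had Grb2 (0.951), B430306N03Rik (0.931) and Rpl36-ps12 (0.917), and Serpina12 had Cyp2c69 (0.979), Skp1 (0.972) and Mup20 (0.968). No gene was in more than 1 of these sets.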

How the data were processed

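RNA sequencing of 9 liver libraries gave read counts per gene. According to the study's methods and processing notes, the authors used FastQC for quality control, cutadapt for trimming and HISAT2 for alignment to mm10, and took the reads on the exons of each gene. The deposited values are whole-number counts without normalization, listed by Entrez identifier. The counting tool, its use of strand and its handling of reads that fit several genes are not given in the sources used here. Of 27179 genes, 25275 were matched to a symbol through RefSeq names of GRCm38.p6, and 1904 were not. A repeated header line (1 line, no identifier) was dropped, and no library was removed.

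A gene entered the test if 3 or more libraries of 1 genotype held at least 1 count of it. The test was edgeR 4.0.16 (quasi-likelihood, TMM, Benjamini-Hochberg adjustment over all genes) under R 4.3.3. For the sums, the paralogs' rows were replaced by their sum in the same table. The 10 most abundant genes were kept, because the summed Serpina1 genes are themselves abundant, and leaving them out was an alternative. Standard errors were obtained as log2 fold change over the root of F. Exact permutation tests, two-sided, went through the 126 ways to divide the libraries, with log2(CPM + 0.5) or percents as values. A fit with DESeq2 1.42.0, other size factors, other filters, a replicate block and the omission of each library were alternatives. The percent of other secreted products was added after seeing the data.

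Levels per kilobase used the longest GENCODE transcript. Total counts of 2318148 to 10764182 per library set the precision, and PCR duplicates are not resolved. A count of 3 corresponds to 0.279 to 1.29 CPM in these libraries before TMM scaling. Figures and tables used Python 3.11.15, numpy 2.4.6, pandas 2.3.3, matplotlib 3.10.9 and Biopython 1.88.

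The members, gene lists and tests were chosen with earlier results of these data known. The genes named were the 10 members and both sums, Ddt, the genes of each list with an adjusted p under 0.05 or otherwise its 2 most abundant and its 2 with the smallest unadjusted p, and the 3 genes of at least 10 CPM that ran closest with the sums, Serpina6 and Serpina12. Of these, 2 genes are not reported here. Ly6g, Adipoq and the clade A genes given by their counts were named after their values were seen.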

Additional observations from a re-analysis of the deposited data

Results flagged for a closer look

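The level of Serpina1a in Apoe-/- library 5 was 1250.4 CPM, far below the other 4 Apoe-/- libraries, which had 3239 to 3739 CPM. The gap to its nearest neighbour took 0.799 of the group's whole range, above the critical value of Dixon's test. It was the only such value among 40 groups of libraries, where chance gives about 1 in 20. The same library was lowest of its genotype for each Serpina1 gene, Serpina3k, Serpina3m, Serpina3n and Serpina6. As percent of the other secreted hepatocyte products, Serpina1a in that library was 1.32%, within the 1.16 to 1.43% of its genotype.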

How the results depend on the processing

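Serpina1a to Serpina1d, Serpina3k, Serpina12 and the Serpina1 sum kept a log2 fold change above 0 in every fit made, while Serpina1e, Serpina3m, Serpina3n, Serpina6 and the Serpina3 sum turned in at least 1. The number of members called was 0 in the main edgeR fit and 3 with DESeq2 (Serpina1b 1.25, Serpina1d 1.44, Serpina3k 1.93). It was 1 (Serpina3k) in edgeR fits with TMMwsp size factors (2.14), with no filter on low counts (2.04) and with filterByExpr (1.98). Serpina3n turned to -0.13 with RLE size factors and with DESeq2, to -0.068 with filterByExpr and to -0.094 with the 10 most abundant genes left out. Scaled to the other secreted products, Serpina1e turned to -0.60, Serpina3m to -0.69, Serpina3n to -0.99 and the Serpina3 sum to -0.19. The log2 ratios of mean percents of that list, added after seeing the data, were -0.61, -0.69, -0.99 and -0.19. Adding Serpina1f to its sum left 1.25, and adding every Serpina3 gene gave 0.65. The cause of these changes was not tested.

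With 1 library left out at a time, the number of members called ranged from 0 to 3, with 3 without Apoe-/- library 5 and 2 without Mif-2-/- Apoe-/- library 2. The log2 fold change ranged from 0.86 to 1.58 for Serpina1a, 1.14 to 1.73 for Serpina1b, 0.74 to 1.48 for Serpina1c, 1.34 to 2.01 for Serpina1d, 0.14 to 0.70 for Serpina1e, 1.73 to 2.24 for Serpina3k, -0.12 to 0.32 for Serpina3m, -0.13 to 0.20 for Serpina3n, -0.32 to 0.16 for Serpina6 and 0.97 to 1.46 for Serpina12, and from 0.98 to 1.68 for the Serpina1 sum and 0.57 to 0.92 for the Serpina3 sum.

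The replicate numbers shared by the genotypes were not treated as pairs, since deviations of same-numbered libraries from their group means had correlations between -0.03 and 0.13 and 0 of 4 Mif-2-/- Apoe-/- libraries ran closest with the Apoe-/- library of its number. A fit with the replicate number as a block called 5 members (Serpina1a 1.45, Serpina1b 1.69, Serpina1c 1.35, Serpina1d 1.88, Serpina3k 2.20) and the Serpina1 sum (1.58, edgeR adjusted p = 0.0132), turned Serpina6 to 0.061, and called 682 genes in all against 25.

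A spread between libraries of 33.3 to 62.7% of the mean for the 4 abundant Serpina1 genes limits these comparisons.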

Other observations

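Among clade A genes outside the 10 members, 4 had nearly all of their counts in 1 library. Serpina3b had 68 counts in Apoe-/- library 5 and 0 elsewhere. Serpina5, the protein C inhibitor, had 57 of its 58 counts there, and Serpina3c 107 of its 114. Serpina16 had 113 counts in Apoe-/- library 4 and 0 in all others. Counts of the next genes were spread over more libraries or were few. Serpina3h had 171 of 297 counts in Mif-2-/- Apoe-/- library 3. Serpina3j, the only clade A gene outside the members that DESeq2 called (adjusted p = 0.00225, edgeR adjusted p = 0.125), was at 0 in each Apoe-/- library. Its counts in those of Mif-2-/- Apoe-/- mice were 0, 18, 23 and 117, so 1 of these was also at 0 and 74.1% of the counts came from 1 library. Serpina1f, the sixth gene of the Serpina1 family in the table, had 2 counts in all. Serpina9 had 20 counts over 4 libraries.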
